A study of Mus musculus with 9 samples.

Results

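The genes described are those whose symbols begin with Timm or Tomm followed by a number, pseudogenes left out, in a table of messenger RNA levels from mouse left ventricle. They number 25 of the 30128 genes in the table. The groups were 3 db/db samples given adeno-associated virus serotype 9 carrying USP28, 3 db/db samples given the null virus of the same serotype, and 3 wild-type control samples. db/db mice lack a working leptin receptor and become obese and diabetic. The USP28 vector drives a deubiquitinating enzyme from the cTnT promoter, which is active in heart muscle cells. Both virus groups share the db/db genotype and the serotype, and no virus is named for the control group. A difference between either virus group and control therefore joins genotype and virus, which cannot be told apart. The difference between the virus groups is the one that bears on USP28. Strain, age, sex, the time after injection and whether each sample is a separate animal are not stated in the sources used here, so p-values measure the spread between samples, which may be technical.

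Nearly all mitochondrial proteins are made in the cytosol and threaded through the mitochondrial membranes. The translocase of the outer membrane, TOM, receives them through receptor subunits and passes them through a channel. Proteins with a cleavable presequence then go to the TIM23 translocase, whose motor pulls them into the matrix, while carrier proteins are led by small chaperones of the intermembrane space to the TIM22 translocase. In heart muscle, rich in mitochondria, these complexes supply the respiratory chain and the carriers that exchange ATP.

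The promoters of genes on which the results below turn are shown so that their sequence can be read beside the levels. RefSeq promoters (GRCm38.p6) were matched by symbol for 22 of the 25 genes, and the 250 bases before each gene's start were searched on both strands for 2 motifs. One was GCGC followed by any base and TGCGC, the motif of NRF1, a regulator of nuclear genes for mitochondrial proteins. The other was CCGGAAG, a core bound by ETS family factors. Neither motif contains the other. The NRF1 motif was present in 1 of the 22 promoters and in 3.74% of 32851 mouse promoters of the same length. The ETS motif was present in 7 of the 22 and in 6.91% of the 32851. Promoters of 3 genes that fell relative to control and are in the table are printed below, with that of Tomm20, which held the NRF1 match. All are given 5′ to 3′ on the gene's strand, with capitals marking a motif.
Timm22 (chr11:76406675-76406924, plus strand): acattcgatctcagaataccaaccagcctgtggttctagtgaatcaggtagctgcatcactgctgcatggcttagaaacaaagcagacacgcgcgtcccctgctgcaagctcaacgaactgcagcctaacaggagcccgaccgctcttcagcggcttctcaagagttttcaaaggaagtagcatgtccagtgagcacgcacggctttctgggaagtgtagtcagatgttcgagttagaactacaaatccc
Tomm70a (chr16:57121464-57121713, plus strand): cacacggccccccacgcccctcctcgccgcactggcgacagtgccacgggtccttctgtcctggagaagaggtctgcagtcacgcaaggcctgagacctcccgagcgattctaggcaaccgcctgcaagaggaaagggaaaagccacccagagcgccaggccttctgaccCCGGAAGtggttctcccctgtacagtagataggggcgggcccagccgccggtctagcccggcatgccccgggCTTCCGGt
Timm44 (chr8:4275906-4276155, minus strand): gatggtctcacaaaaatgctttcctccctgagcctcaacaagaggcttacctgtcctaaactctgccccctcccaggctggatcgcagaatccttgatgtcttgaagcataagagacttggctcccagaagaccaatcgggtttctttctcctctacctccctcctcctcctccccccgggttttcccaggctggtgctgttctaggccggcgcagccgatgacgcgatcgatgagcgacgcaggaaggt
Tomm20 (chr8:126945922-126946171, minus strand): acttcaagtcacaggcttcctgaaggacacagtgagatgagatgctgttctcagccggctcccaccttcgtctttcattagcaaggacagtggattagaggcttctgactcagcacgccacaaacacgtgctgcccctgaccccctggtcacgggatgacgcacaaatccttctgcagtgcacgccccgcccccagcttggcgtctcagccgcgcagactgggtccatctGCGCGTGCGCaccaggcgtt
The Tomm70a promoter held the ETS motif in 2 places, once on each strand, and the Timm22 and Timm44 promoters held neither motif. RefSeq places the start of Tomm20 upstream of the span in the table. Bases just after that start were not found near the start of a GENCODE transcript of Tomm20, unlike those of the other genes printed. A match describes letters only, and its absence says nothing about a factor.

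Library depth was 41055880 to 50512862 reads with USP28 virus, 35970332 to 42370259 with null virus and 42084137 to 56497662 in control. Heart muscle genes stood high in every library, the 8 cardiomyocyte markers summing to 27567 to 31358 RPKM (reads scaled to gene length and library depth) with USP28 virus, 25188 to 37699 with null virus and 28823 to 33064 in control. In bulk tissue, fewer cells of a type and less RNA per cell cannot be told apart. Usp28 itself stood at 9.83, 11.4 and 11.3 RPKM with USP28 virus, 9.92, 7.58 and 7.82 with null virus and 12.5, 13.3 and 13.7 in control. The virus groups overlapped, and both lay below control (USP28 virus minus null virus 0.36 log2, limma adjusted p = 0.19, and 0.48 log2, adjusted p = 0.0155, without null virus replicate 1). Replicate 1 of the USP28 virus group held atrial markers at 145 RPKM in sum, against at most 8.42 in any other library. Replicate 1 of the null virus group departed from its group's mean by 0.334 log2 per gene on average, against 0.144 to 0.214 in the other 8 libraries. Results are therefore given with and without it.

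All levels below are RPKM scaled between libraries. They are per gene length, so genes are set side by side below. By gene spans, introns included, another gene in the table overlaps 14 of the 25. How shared reads were counted is not stated, so the order of levels carries that limit. Of the 25 genes, 23 reached the minimum for testing (0.5 RPKM in at least 3 libraries). These 23, called import genes below, include Tomm6os, an antisense RNA that is not protein coding and enters by its symbol alone. Over the 9 libraries, Timm8b had the highest mean level at 47.3 ± 15.5 RPKM, followed by Timm23 at 40.1 ± 6.67, Timm44 at 38 ± 5.27 and Tomm5 at 34.3 ± 8.01. Each gap between these neighbours was smaller than the larger of their SDs. Timm10, a small chaperone, came next at 23.4 ± 9.84 RPKM. At the low end of the tested genes were Timm50 at 1.98 ± 0.344 and Tomm6os at 1.94 ± 0.342 RPKM, which differed by less than their spread. Subunits of one complex were thus listed at very different levels: in the TIM23 group Timm23 was near 40 RPKM and Timm17b at 2.04 ± 0.285 RPKM. Both remaining genes were below the minimum. Tomm20l, a homologue of Tomm20, had 1 to 10 reads per library, and Timm8a2, a homologue of Timm8a1, was listed at 0 in 8 libraries and had 1 read in replicate 3 of the null virus group. The 3 reads that a count of 0 allows correspond to 0.0531 to 0.0834 CPM (reads scaled to depth alone) across the libraries, for counting error only.

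**Figure D1:**
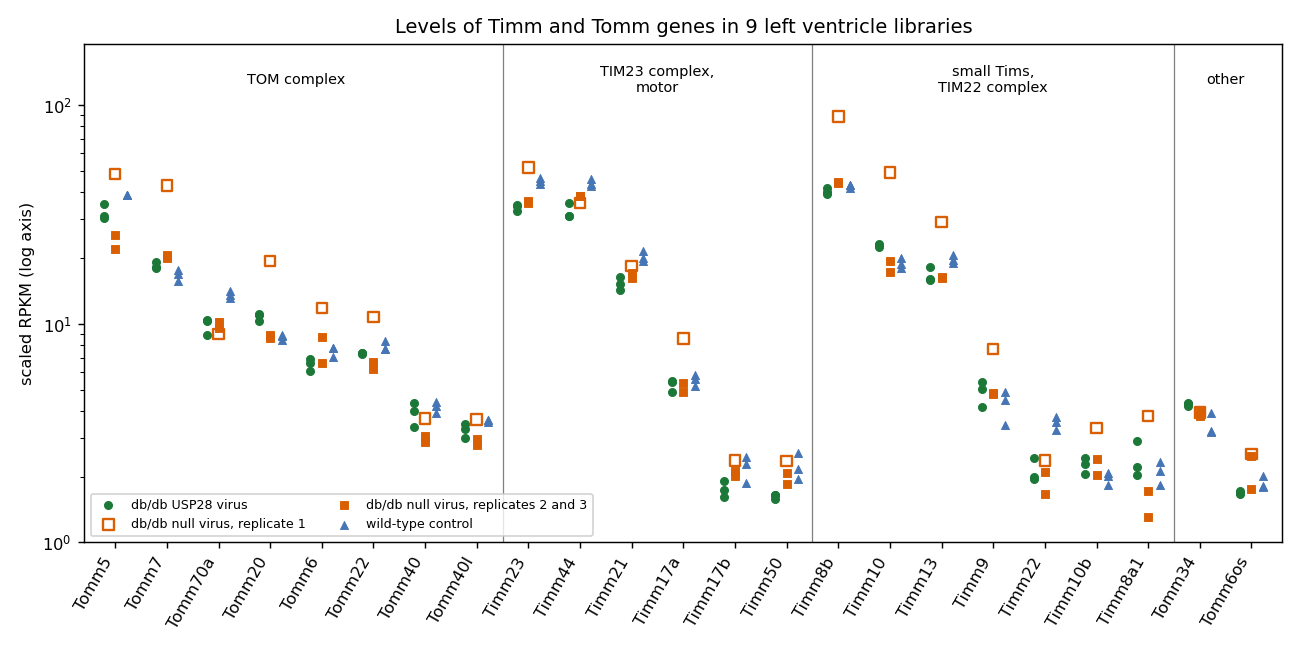
Scaled RPKM of the 23 tested genes in all 9 libraries (log axis), grouped by complex, with circles for USP28 virus, squares for null virus and triangles for control. The open square is replicate 1 of the null virus group, the highest of the 9 libraries for 14 of the 23 genes.

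Replicate 1 of the null virus group stood above its group for most import genes. It was the highest of the 9 libraries for 14 of the 23 genes, where it was the highest for 26.7% of all 14104 genes tested. Within its own group it was the highest for 20 of the 23, against 41.2% of all genes. The genes' median departure from the group mean was 0.38 log2 in this library and -0.15 and -0.24 in replicates 2 and 3. Other genes moved in this library too. The 8 cardiomyocyte markers summed to 37699 RPKM in it, against 26900 and 25188 in replicates 2 and 3. The endothelial markers summed to 71.2 RPKM against 92.6 and 92.1. Sums of the fibroblast, macrophage and smooth muscle and pericyte markers were also the lowest of the group in it. Among import genes the excess in this library was larger for short genes. The 10 import genes under 1500 bases had a median ratio of 1.89 to the mean of the other replicates (range 1.11 to 2.68), and the 13 longer ones had 1.24 (0.909 to 2.21). Over all genes the median ratio was 1.20 for 3418 genes under 1500 bases and 0.946 for 10686 longer ones, so that only the short genes lay above 1 at the median. Timm10 had the highest ratio, 2.68, and Tomm70a the lowest, 0.909. The part of length, RNA quality or this sample in these ratios was not tested.

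**Figure D2:**
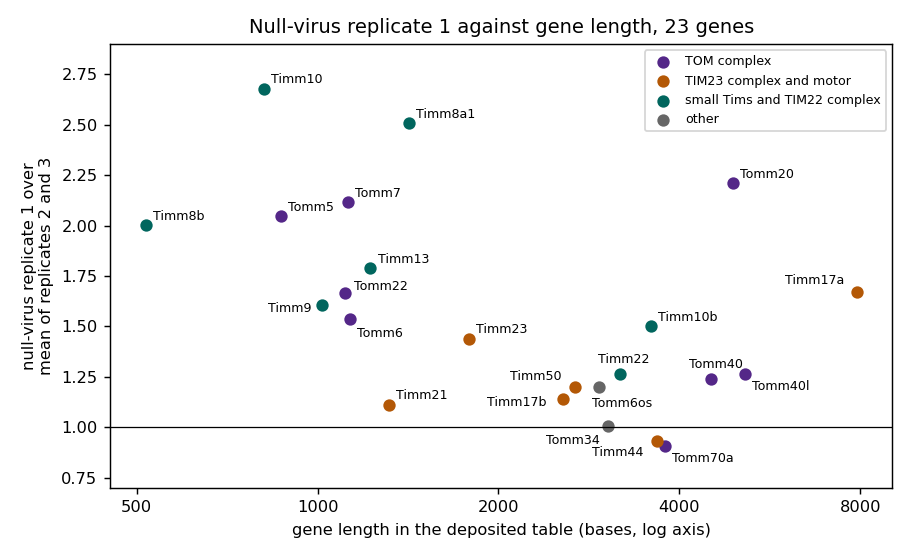
Level in replicate 1 of the null virus group divided by the mean of replicates 2 and 3 (vertical axis), against gene length in bases (horizontal log axis), for the 23 tested genes coloured by complex. Above a ratio of 1.5 lie 12 genes, and 2 genes, Tomm70a and Timm44, lie below 1.

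Relative to wild-type control, 2 of the 23 genes fell in the null virus group and none rose. They were Timm22, the channel of the carrier translocase, and Tomm70a, the outer membrane receptor that takes up carrier proteins. In the USP28 virus group 4 fell and none rose: the same 2 genes together with Timm21 and Timm44 of the presequence pathway. Between the USP28 and null virus groups none of the 23 passed. The threshold was an adjusted p under 0.05 (limma, Benjamini-Hochberg over all genes tested), which 22.2% of all genes met for null virus against control (10.3% higher and 11.9% lower). The import genes' 8.7% in that comparison lay under the share of all genes. In the comparison of USP28 virus with control 11.7% of all genes passed (5.61% higher and 6.08% lower), somewhat less than the import genes' 17.4%. Between the virus groups 0.596% of all genes passed (0.369% higher and 0.227% lower). Scaling by library totals alone shifted these splits, to 612 genes higher and 309 lower for USP28 virus against control (791 and 858 as scaled here) and to 27 higher and 4 lower between the virus groups (52 and 32). The 2 comparisons with control share the control samples. The import genes were chosen with earlier results of these data known, so their shares are descriptions only.

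Timm22 had the largest difference from control of the 23 genes in both virus groups. Timm22 (chr11:76406952-76416292) stood at 1.95, 1.98 and 2.44 RPKM with USP28 virus, 2.37, 2.09 and 1.67 with null virus and 3.28, 3.54 and 3.74 in control. All 6 libraries of the virus groups lay under all 3 control libraries, and the virus groups overlapped. Null virus minus control was -0.77 log2 (SE 0.15, adjusted p = 0.0084), and -0.88 (adjusted p = 0.0026) without null virus replicate 1. USP28 virus minus control was -0.71 log2 (SE 0.15, adjusted p = 0.02). USP28 virus minus null virus was 0.06 log2, with a 95% interval from -0.27 to 0.39. The counts behind these values were 230 to 607 reads per library, and no other annotated gene overlaps Timm22.

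Tomm70a (chr16:57121714-57154530) showed the same pattern at a higher level. It stood at 8.86, 10.4 and 10.2 RPKM with USP28 virus, 8.97, 9.55 and 10.2 with null virus and 14.1, 13.2 and 13.6 in control. No library of a virus group reached the lowest control library. Null virus minus control was -0.51 log2 (SE 0.10, adjusted p = 0.0079) and USP28 virus minus control was -0.47 log2 (SE 0.10, adjusted p = 0.018). USP28 virus minus null virus was 0.04 log2, with a 95% interval from -0.18 to 0.25. Against null virus, both genes therefore differed by less than the spread between samples, and the intervals leave room for changes of the size given by their bounds.

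Timm44 (chr8:4259731-4275913) tethers the mitochondrial Hsp70 motor to the TIM23 channel. It stood at 31, 31 and 35.4 RPKM with USP28 virus, 35.7, 38.4 and 38.2 with null virus and 45.9, 43.5 and 42.5 in control. The 3 groups did not overlap, USP28 virus being lowest and control highest. USP28 virus minus control was -0.44 log2 (SE 0.09, adjusted p = 0.019). The steps between were not called, with null virus minus control at -0.23 log2 (adjusted p = 0.096) and USP28 virus minus null virus at -0.21 log2 (adjusted p = 0.3).

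Timm21 (chr18:84947294-84951524), a subunit that links TIM23 with TOM and the respiratory chain, had 14.3, 16.4 and 15.2 RPKM with USP28 virus, 18.4, 17 and 16.1 with null virus and 19.3, 21.5 and 19.9 in control. Both virus groups lay wholly below control and overlapped each other. USP28 virus minus control was -0.40 log2 (SE 0.09, adjusted p = 0.029), and null virus minus control was -0.24 log2 (adjusted p = 0.1). Null virus minus control passed when null virus replicate 1 was left out (-0.29 log2, adjusted p = 0.027). GENCODE M21 gives Timm21 a wider span (chr18:84946191-84951524) than the table does. By that span, introns included, Timm21 shares 5334 bases with Fbxo15, a symbol not listed in the table, on the opposite strand. Whether exons are shared was not examined, and whether reads from the strand of Fbxo15 were counted for Timm21 is not stated.

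The calls against control differed in firmness. For null virus, Timm22 and Tomm70a passed in all 19 alternative settings, with the highest adjusted p at 0.0397 and 0.0344. With USP28 virus, Timm22 passed in 15 of 19, Tomm70a and Timm44 in 13 each and Timm21 in 10, all with negative differences throughout. Leaving out USP28 virus replicate 1, the library with atrial markers, left 0 of the 4, as did leaving out control replicate 2 or control replicate 3. Leaving out USP28 virus replicate 2 or control replicate 1 left 1 gene (Tomm70a in the first case and Timm22 in the second), and leaving out USP28 virus replicate 3 left 2, Timm22 and Timm44. Over all genes the same omissions left 374 to 1035 calls of 1649. In a fit of the USP28 virus and control groups alone, 10 of the 23 passed (7 lower and 3 higher), against 27.4% of all genes.

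**Figure D3:**
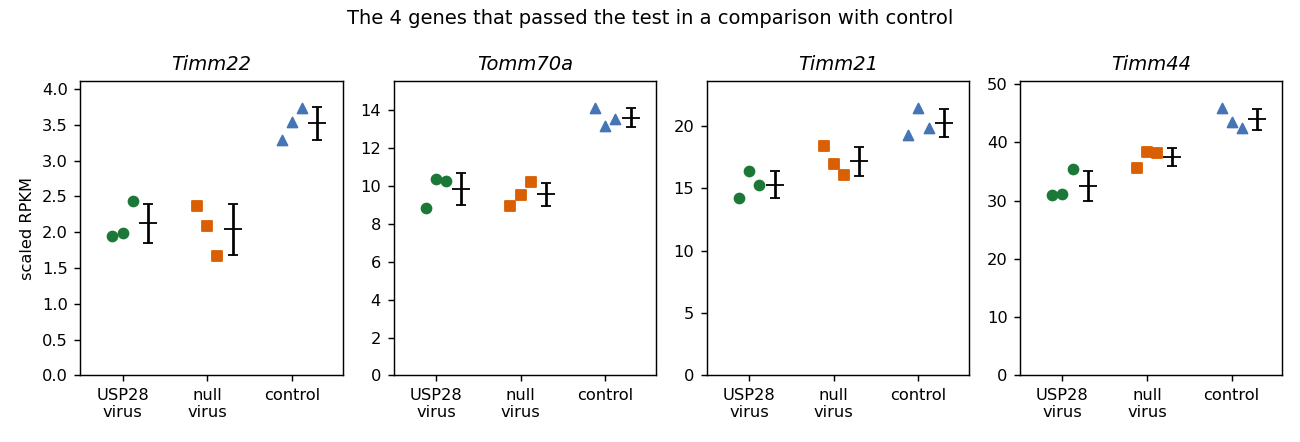
Scaled RPKM (vertical axes, from 0) of Timm22, Tomm70a, Timm21 and Timm44 in each library, with the mean and SD of 3 libraries beside each group. Control lies above both virus groups in every panel, and Timm44 alone has 3 groups with no overlap.

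None of the other 4 subunits of the TIM23 translocase passed with all libraries. Timm23 (chr14:32180162-32201898), which forms the channel with Timm17a or Timm17b, stood at 34.7, 32.9 and 34.7 RPKM with USP28 virus, 51.7, 35.5 and 36.3 with null virus and 43.7, 45 and 46.4 in control. The USP28 virus libraries were below all others, and null virus replicate 1 was the highest of the 9. USP28 virus minus control was -0.40 log2 (adjusted p = 0.1) and null virus minus control was -0.15 log2 (adjusted p = 0.47). Without null virus replicate 1 both passed, at -0.40 (adjusted p = 0.0015) and -0.32 log2 (adjusted p = 0.0044).

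Timm50, the receptor that hands presequences to the channel, had 1.64, 1.65 and 1.57 RPKM with USP28 virus, 2.36, 2.08 and 1.85 with null virus and 2.17, 1.95 and 2.57 in control. The USP28 virus libraries lay below the other 6, which overlapped (USP28 virus minus control -0.43 log2, adjusted p = 0.07, and 0.0257 without null virus replicate 1). Timm17a had 5.45, 4.89 and 5.43 RPKM with USP28 virus, 8.55, 4.87 and 5.36 with null virus and 5.8, 5.17 and 5.6 in control. Its groups overlapped in every comparison. Timm17b had 1.74, 1.61 and 1.91 RPKM with USP28 virus, 2.36, 2.01 and 2.13 with null virus and 2.28, 1.87 and 2.45 in control, USP28 virus lying below null virus without overlap. Over the 6 genes of this translocase and its Timm44 tether, all 6 differences between USP28 virus and control were below 0, with a median of -0.40 log2, against 0.01 over all genes. All 6 were also below 0 for USP28 virus minus null virus, where none passed and the median was -0.23 log2. Without null virus replicate 1, 5 of the 6 were below 0 in that comparison, Timm17a being the exception at 0.04 log2, and the median was -0.17 log2.

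Among the TOM receptors, Tomm20 had higher levels with USP28 virus than in control, unlike Tomm70a. Tomm20 (chr8:126930667-126945844), which recognises presequences, had 11, 11.1 and 10.3 RPKM with USP28 virus, 19.4, 8.63 and 8.92 with null virus and 8.81, 8.84 and 8.41 in control. The USP28 virus libraries were above all control libraries, and null virus replicate 1 was far above its partners. USP28 virus minus control was 0.31 log2 (adjusted p = 0.49), and 0.31 (adjusted p = 0.0063) without null virus replicate 1. USP28 virus minus null virus was -0.09 log2 (adjusted p = 0.89) with that library and 0.29 log2 (adjusted p = 0.037) without it. Tomm22, the central receptor, had 7.31, 7.28 and 7.35 RPKM with USP28 virus, 10.7, 6.7 and 6.2 with null virus and 8.32, 7.66 and 7.64 in control. With all libraries it was not called. Its null virus minus control difference was -0.04 log2 (adjusted p = 0.89), and -0.28 (adjusted p = 0.0196) without null virus replicate 1.

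Tomm40, the outer membrane channel, stood at 3.36, 3.97 and 4.35 RPKM with USP28 virus, 3.69, 2.88 and 3.08 with null virus and 3.89, 4.21 and 4.4 in control. Null virus lay below control without overlap (-0.37 log2, adjusted p = 0.072). The difference was -0.47 log2 (adjusted p = 0.018) once null virus replicate 1 was left out. Tomm40l, its homologue, had 3, 3.31 and 3.48 RPKM with USP28 virus, 3.64, 2.98 and 2.78 with null virus and 3.63, 3.55 and 3.65 in control. Its difference for null virus minus control was -0.21 log2 (adjusted p = 0.23), and -0.31 (adjusted p = 0.0294) without null virus replicate 1. Tomm40l shares 4691 bases of its span, introns included, with Nr1i3 on the opposite strand, and whether strand was used in counting is not stated.

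The small TOM subunits, which stabilise the channel, stood high in null virus replicate 1, at 1.54 to 2.11 times the mean of the other replicates. Tomm5 had 30.4, 31.1 and 35.1 RPKM with USP28 virus, 48.4, 22 and 25.3 with null virus and 38.6, 38.6 and 38.7 in control. Replicates 2 and 3 of the null virus group were the lowest of the 9 libraries and replicate 1 the highest. Null virus minus control was -0.36 log2 (adjusted p = 0.32), and -0.71 (adjusted p = 0.00086) without that library. USP28 virus minus null virus was 0.10 log2 (adjusted p = 0.86), and 0.44 (adjusted p = 0.021) without it. Against control, USP28 virus differed by -0.26 log2 (adjusted p = 0.53), and -0.26 (adjusted p = 0.0311) without it.

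Tomm7 had differences from control of the opposite sign. It had 19.1, 18.2 and 18 RPKM with USP28 virus, 42.8, 20 and 20.5 with null virus and 17.6, 15.6 and 16.9 in control. Both virus groups lay above control without overlap, and null virus minus control was 0.63 log2 (adjusted p = 0.1), or 0.28 (adjusted p = 0.018) without null virus replicate 1. Tomm6 had 6.89, 6.59 and 6.06 RPKM with USP28 virus, 11.8, 8.73 and 6.6 with null virus and 7.78, 7.06 and 7.75 in control, with no call. Tomm6os, an RNA antisense to Tomm6, ranged from 1.67 to 1.72 RPKM with USP28 virus, 1.76 to 2.54 with null virus and 1.79 to 2.02 in control. The 2 genes share 777 bases on opposite strands, so their reads may be split between them. On the same strand, Tomm6 shares 1648 bases with Gm21981, and Tomm6os shares 2054 bases with Frs3. On the opposite strand, Tomm6os also shares 3474 bases with Gm21981 and 2567 with Prickle4. These are overlaps of gene spans, introns included, and whether exons are shared was not examined. How reads in shared bases were counted is not stated, so it is not known whether either level belongs to the named gene alone.

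The small Tim chaperones of the intermembrane space, which escort carriers and other membrane proteins, had no call in any comparison with all libraries. Timm8b, the partner of Timm13, had 41.8, 40.2 and 39.1 RPKM with USP28 virus, 88.5, 44 and 44.4 with null virus and 41.7, 42.9 and 43 in control. Apart from null virus replicate 1, all libraries lay between 39.1 and 44.4 RPKM. Null virus minus control was 0.39 log2 (adjusted p = 0.26), and 0.06 (adjusted p = 0.47) without that library. Timm10, which pairs with Timm9, had 22.5, 23.1 and 22.8 RPKM with USP28 virus, 49, 17.2 and 19.4 with null virus and 17.9, 18.8 and 20 in control. The USP28 virus libraries lay above all control libraries, and the null virus libraries were on both sides of them. USP28 virus minus control was 0.27 log2 (adjusted p = 0.64), and 0.27 (adjusted p = 0.017) without null virus replicate 1. USP28 virus minus null virus was -0.15 log2 (adjusted p = 0.84), and 0.32 (adjusted p = 0.0417) without it.

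Timm13, which pairs with the Timm8 proteins, had 15.9, 16.1 and 18.2 RPKM with USP28 virus, 29.1, 16.2 and 16.3 with null virus and 20.6, 19.6 and 18.9 in control. The USP28 virus libraries lay below control, and the null virus libraries lay on both sides of it. Without null virus replicate 1 Timm13 passed lower against control in both virus groups (USP28 virus -0.23 log2, adjusted p = 0.0337, and null virus -0.27, adjusted p = 0.0284). Timm9 ranged from 4.15 to 5.39 RPKM with USP28 virus, 4.75 to 7.67 with null virus and 3.46 to 4.86 in control. Timm10b, a small Tim bound to the TIM22 translocase, ranged from 2.06 to 2.42 RPKM with USP28 virus, 2.03 to 3.34 with null virus and 1.83 to 2.07 in control. Neither was called in any comparison. Timm10b shares 3086 bases of its span, introns included, with Gm45799 on the same strand, a symbol not listed in the table. Timm8a1, on the X chromosome, had 2.04, 2.22 and 2.92 RPKM with USP28 virus, 3.79, 1.31 and 1.71 with null virus and 1.83, 2.32 and 2.11 in control, with all groups overlapping. Tomm34, a cytosolic cochaperone of preproteins, had 4.22, 4.35 and 4.28 RPKM with USP28 virus, 3.92, 3.79 and 3.99 with null virus and 3.19, 3.24 and 3.89 in control. Its USP28 virus libraries were above all others, without passing the test against control (0.31 log2, adjusted p = 0.075). Without null virus replicate 1 it passed (0.32 log2, adjusted p = 0.0311).

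**Figure D4:**
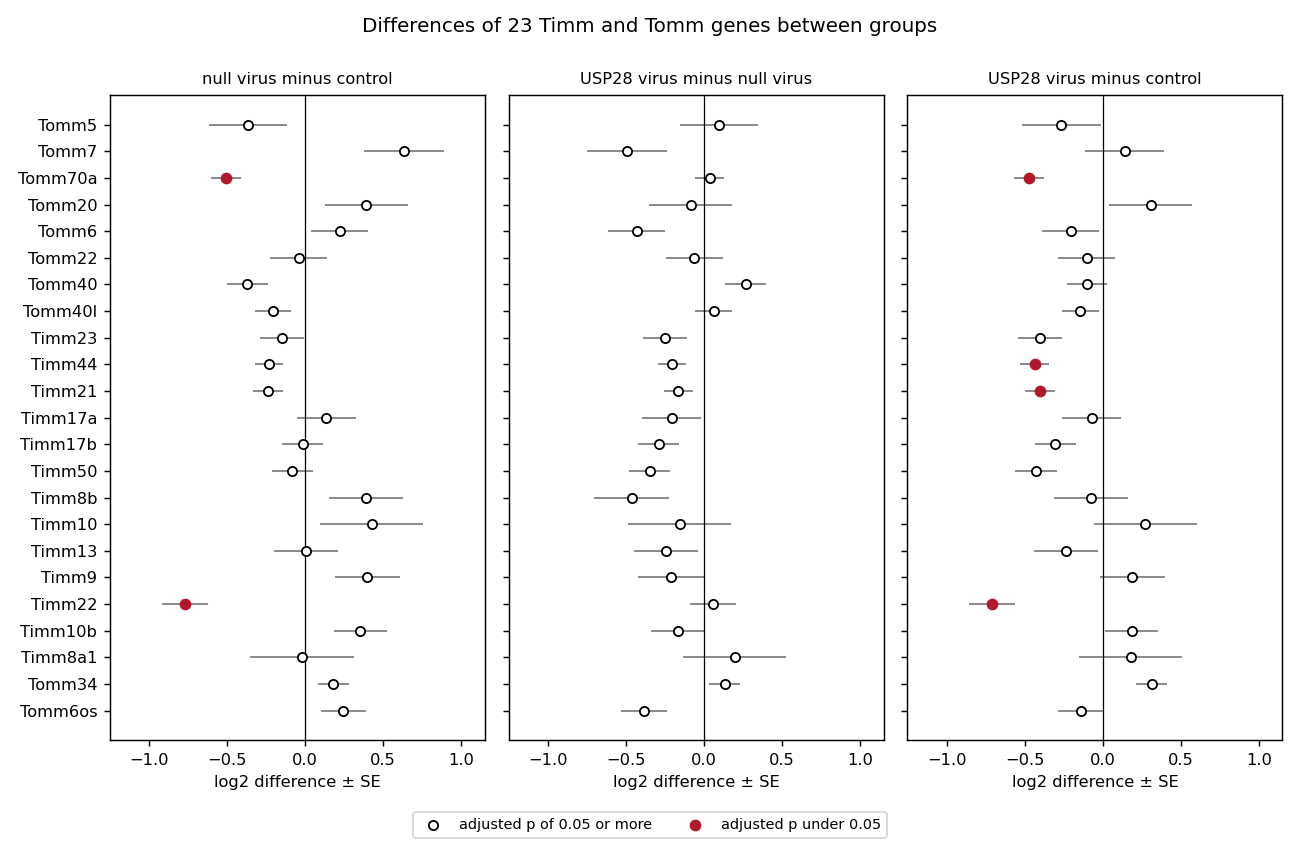
Log2 differences with SE (horizontal axes) of the 23 tested genes in the 3 comparisons, ordered by complex and mean level. Filled points passed at an adjusted p under 0.05: Timm22 and Tomm70a on the left, none in the middle, and Timm22, Tomm70a, Timm21 and Timm44 on the right, all below 0.

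Counted by overlap alone, 2 genes were wholly higher and 5 wholly lower in null virus than in control, with 19.8% and 21.6% of all genes on those sides (41.4% in all). In USP28 virus relative to control 4 were higher and 12 lower, with 22.6% and 23.2% of all genes on those sides. Relative to null virus 1 was higher (Tomm34) and 7 lower, with 11.8% and 11.5% of all genes. In this last comparison 4 of the 23 genes, Timm44, Timm50, Tomm6 and Tomm6os, had an unadjusted p under 0.05, as had 16.7% of all genes, and limma voom on the recovered reads also called 0. The median difference of the 23 genes was -0.02 log2 for null virus minus control, -0.17 for USP28 virus minus null virus and -0.14 for USP28 virus minus control, against 0.01 over all genes in each. Without null virus replicate 1 these medians were -0.16 for null virus minus control, 0.02 for USP28 virus minus null virus and -0.14 for USP28 virus minus control.

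Without null virus replicate 1 the calls were 10 of 23 for null virus against control (1 higher and 9 lower, against 32% of all genes). They were 3 of 23 for USP28 virus against null virus, all higher (Tomm5, Tomm20 and Timm10, against 6.65%), and 11 of 23 for USP28 virus against control (3 higher and 8 lower, against 29.7%). In the last comparison neither group lost a library, and the differences hardly moved while their SEs fell. Timm23 stayed at -0.40 log2 as its SE went from 0.14 to 0.05, and Tomm20 at 0.31 log2 as its SE went from 0.27 to 0.06. The added calls thus came with a smaller shared estimate of the spread.

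Ratios between paralogous subunits were also compared. Timm17a exceeded Timm17b by a geometric mean of 3.0 with USP28 virus, 2.81 with null virus and 2.52 in control. The Tomm40l to Tomm40 ratio was 0.841 with USP28 virus, 0.974 with null virus and 0.867 in control. The Timm8a1 to Timm8b ratio was 0.0586 with USP28 virus, 0.0366 with null virus and 0.0489 in control. Groups did not overlap for Timm17a to Timm17b between USP28 virus and control, for Tomm40l to Tomm40 between the virus groups, or for Timm8a1 to Timm8b between null virus and either other group. Tomm20l was read too rarely beside Tomm20 to describe, at 0.0342 to 0.304 RPKM with USP28 virus, 0.254 to 0.441 with null virus and 0.0602 to 0.329 in control. Over 4 pairs and 12 comparisons, the lowest two-sided exact permutation p was 0.1, the smallest that 3 against 3 allows, and the lowest adjusted p was 0.3. This exact test could therefore not pass the threshold for any ratio.

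Genes that work with the translocases were read beside them, 35 of 36 being tested. The list was chosen with earlier results of these data known, so its shares are descriptions only. For null virus against control 8 passed, 7 lower and 1 higher (22.9%, against 22.2% of all genes). Set against control, USP28 virus gave 6, all lower (17.1%, against 11.7%). That count depended on single libraries. It was 0 without USP28 virus replicate 1, USP28 virus replicate 2 or control replicate 2, and 1 without control replicate 1 or control replicate 3. In a fit of the USP28 virus and control groups alone it was 16 (3 higher and 13 lower). Between the virus groups limma called 0, 4 having an unadjusted p under 0.05, and limma voom also called 0. Their median was -0.06 log2 for null virus minus control, -0.19 for USP28 virus minus control and -0.10 for USP28 virus minus null virus. Leaving out null virus replicate 1 gave medians of -0.13 log2 for null virus minus control and -0.04 for USP28 virus minus null virus, with 13 calls (2 higher and 11 lower) for null virus against control, 0 between the virus groups and 17 (3 higher and 14 lower) for USP28 virus against control.

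In the import motor, Grpel2, a nucleotide exchange factor of mitochondrial Hsp70, had 2.56, 2.42 and 2.67 RPKM with USP28 virus, 2.33, 1.73 and 2.3 with null virus and 4.36, 4.26 and 3.8 in control. Both virus groups lay well below control (null virus minus control -0.94 log2, SE 0.13, adjusted p = 0.0024, and USP28 virus minus control -0.68 log2, SE 0.13, adjusted p = 0.015). Its homologue Grpel1 had 30.8, 38 and 35.9 RPKM with USP28 virus, 45.7, 34.3 and 34.3 with null virus and 50.3, 48.4 and 48.2 in control, and fell with USP28 virus against control (-0.49 log2, adjusted p = 0.045). Hspd1, the matrix chaperonin, had 127, 123 and 138 RPKM with USP28 virus, 145, 129 and 135 with null virus and 195, 175 and 179 in control. It fell in both virus groups against control (-0.50 log2 with USP28 virus, adjusted p = 0.016, and -0.42 with null virus, adjusted p = 0.018).

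Among the presequence proteases, Pmpca and Pmpcb form the processing peptidase, and Xpnpep3 trims a residue after it. Pmpca fell in both virus groups against control (USP28 virus -0.39 log2, adjusted p = 0.031, and null virus -0.38, adjusted p = 0.022). Pmpcb fell with USP28 virus (-0.32 log2, adjusted p = 0.039). Xpnpep3 fell in both (USP28 virus -0.66 log2, adjusted p = 0.048, and null virus -0.74, adjusted p = 0.021), at 67 to 299 reads per library. In outer membrane insertion, Dnajc11 (-0.61 log2, adjusted p = 0.0081) and Mtx3 (-0.67 log2, adjusted p = 0.015) fell with null virus against control. Spg7, a subunit of an inner membrane protease, was the one that rose, by 0.35 log2 with null virus (adjusted p = 0.02).

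The TIM22 complex of human cells includes the products of Timm22, Agk and Timm29, beside Timm9, Timm10 and Timm10b. Timm29 is listed under the older symbol 1810026J23Rik and is so outside the 25. Timm22, Agk and Timm29 were picked after their values were seen, so no test was made of them as a group. The 3 small Tims of the complex had differences from control above 0 and no call with all libraries. Null virus minus control was 0.40 log2 for Timm9, 0.43 for Timm10 and 0.35 for Timm10b. Without null virus replicate 1 it was 0.18 for Timm9, -0.05 for Timm10 and 0.17 for Timm10b, with no call. Agk, a lipid kinase, had 0.525, 0.558 and 0.432 RPKM with USP28 virus, 0.421, 0.318 and 0.361 with null virus and 0.789, 0.837 and 0.749 in control. Timm29 had 6.83, 7.87 and 7.4 RPKM with USP28 virus, 6.98, 6.48 and 7.07 with null virus and 8.9, 8.29 and 8.63 in control. Neither overlapped control in either virus group. Agk was under the 0.5 RPKM minimum in every null virus library and was tested through the other groups, so its entry into the test was tied to the difference. With a minimum of 1 RPKM, Agk and Xpnpep3 were not tested, and 6 partner genes passed for null virus against control. Null virus minus control was -0.94 log2 for Agk (adjusted p = 0.008) and -0.33 log2 for Timm29 (adjusted p = 0.031), and USP28 virus minus control was -0.56 log2 for Agk (adjusted p = 0.072, and 0.0348 without null virus replicate 1) and -0.22 log2 for Timm29 (adjusted p = 0.14).

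**Figure D5:**
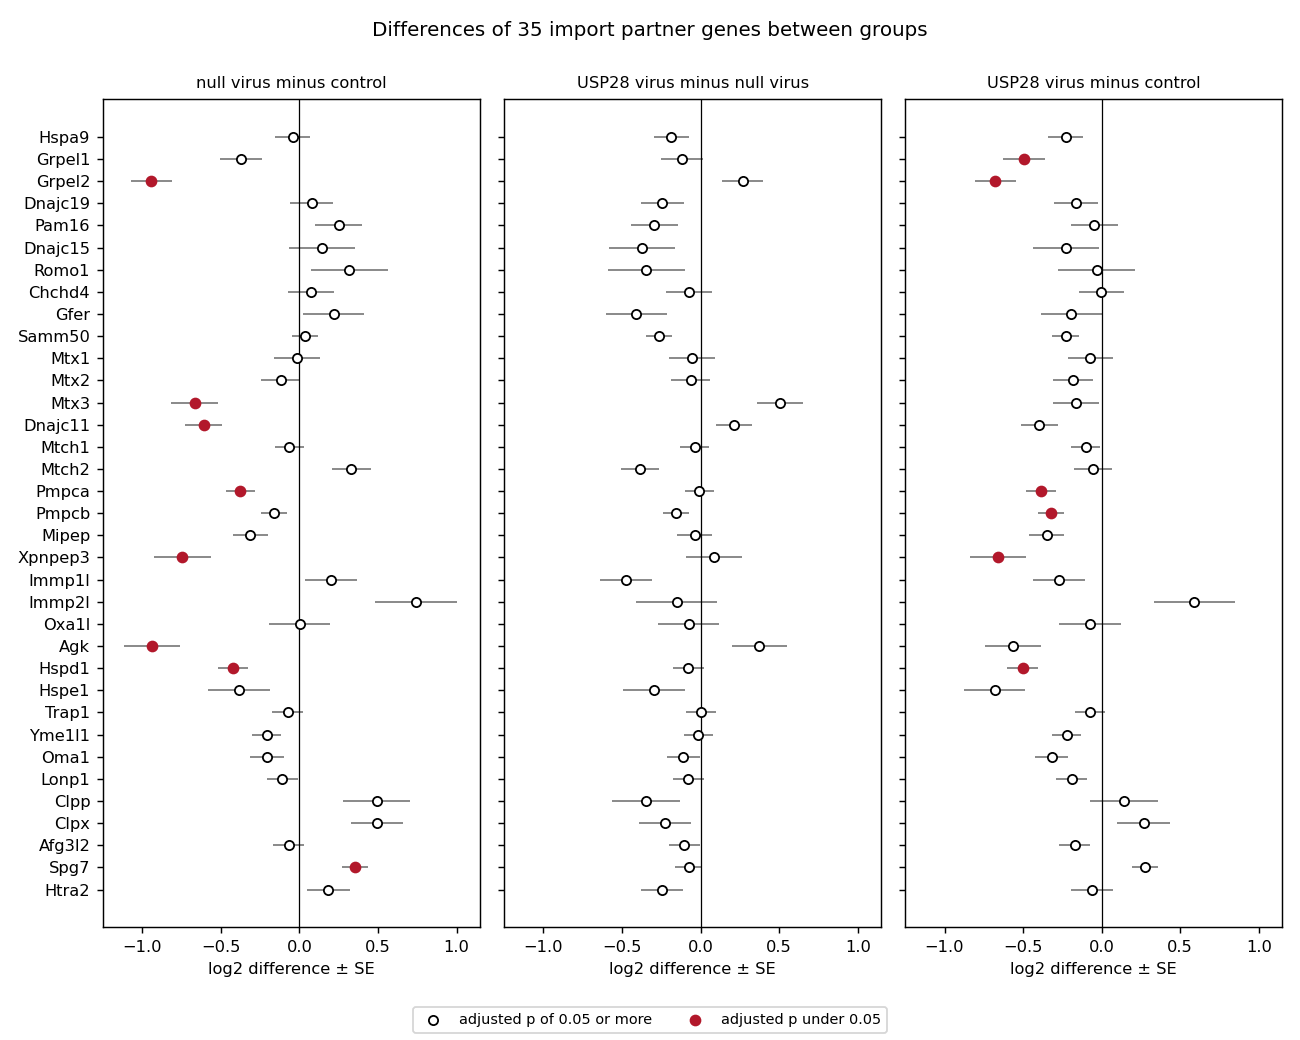
Log2 differences with SE (horizontal axes) of the 35 tested partner genes in the 3 comparisons, ordered by role from import motor to protein quality control. Filled points passed at an adjusted p under 0.05: 8 on the left, Spg7 alone above 0, none in the middle, and 6 on the right, all below 0.

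Calls among markers of other cells are to be read beside the shares of all genes that passed against control, 11.7% with USP28 virus and 22.2% with null virus. None of the 8 cardiomyocyte markers passed in any comparison. Of 5 endothelial markers 2 were higher in each virus group than in control, their sum being 86.6 to 97 RPKM with USP28 virus, 71.2 to 92.6 with null virus and 62.8 to 73.7 in control. Of 5 macrophage markers 1 was lower with USP28 virus and 3 with null virus, summing to 7.6 to 9.1 RPKM with USP28 virus, 6.25 to 8.2 with null virus and 9.74 to 13.2 in control. Of 6 fibroblast markers 1 was lower with USP28 virus and 3 with null virus, summing to 101 to 113 RPKM with USP28 virus, 94 to 108 with null virus and 90.8 to 108 in control. Of 4 smooth muscle and pericyte markers 1 was higher with USP28 virus and 0 with null virus, summing to 218 to 254 RPKM with USP28 virus, 171 to 227 with null virus and 170.2 to 210.4 in control. Of the fibroblast markers Lum was higher with USP28 virus than with null virus. In that comparison 0.596% of all genes passed. Leaving out any 1 library of the USP28 virus group left 0 genes, and leaving out null virus replicate 1 gave 931. The 3 erythroid markers had differences below 0 against control, with no call, a median of -0.94 log2 for USP28 virus and -0.79 for null virus. They summed to 92.9 to 195 RPKM with USP28 virus, 111 to 172 with null virus and 117 to 447 in control, control replicate 2 being the highest. Adipocyte markers summed to at most 0.327 RPKM. Their part in the lower levels of Timm22, Tomm70a, Timm21 and Timm44 was not tested.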

How the data were processed

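Polyadenylated RNA of 9 left ventricle samples was made into directional libraries and read in pairs on an Illumina NovaSeq, per the labels' protocols. HISAT2 and DESeq2 were used by the authors, per the submitters' processing notes, which name the build GRCh38. Symbols and spans are mouse: 20 of the 25 genes have spans identical to GENCODE M21 (GRCm38), so positions are given on that build. The authors deposited RPKM values with gene lengths. The unit was read from the values: 99.984% of those above 0 are whole reads per library step (tolerance 0.01), which gave the depths, and every value of the 25 genes is whole. The members and gene lists were chosen with earlier results of these data known. Members that passed, the 5 with the highest mean and paralog pairs are given per sample, with up to 3 passing partner genes per role.

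RPKM was scaled by a trimmed mean of M values (30% of ratios, 5% of levels), a pseudocount of 0.1 was added and log2 taken. Differences came from limma (version 3.58.1 under R 4.3.3, eBayes with trend and robust options), with Benjamini-Hochberg adjustment over 14104 genes. All 9 libraries entered 1 fit with 3 groups. Fold changes on this scale understate those of low genes. Among 19 alternatives was limma voom on the recovered reads. Replicates differed by more than sampling noise (chi-square over degrees of freedom 19.1 to 144).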

Additional observations from a re-analysis of the deposited data

How the results depend on the processing

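Of 1311 recomputed differences of single genes, 1257 stayed on their side of the threshold, 33 of them with another sign but no call in either fit. A further 26 passed that had not, 25 no longer passed and 3 were called with the opposite sign. Omitting null virus replicate 1 gave 15 of the 26 and all 3. The 3 ranged, over omissions of 1 library, from -0.27 to 0.15 log2 for Timm13 (null virus minus control), and from -0.45 to 0.32 for Timm10 and -0.30 to 0.29 for Tomm20 (USP28 virus minus null virus). Leaving out 1 library at a time, calls for null virus against control ranged from 1424 to 4476 over all genes (3129 with all), 2 to 10 for the import genes and 3 to 13 for the partner genes. For USP28 virus against null virus they ranged from 0 to 931 (84), 0 to 3 and 0. For USP28 virus against control they ranged from 374 to 4156 (1649), 0 to 11 and 0 to 17.

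Fitting 2 groups alone gave 1647 genes and 4 partner genes for null virus against control, 0 genes for USP28 virus against null virus, and 3865 genes (27.4%), 10 import genes (7 lower and 3 higher) and 16 partner genes for USP28 virus against control. Library totals alone gave 31 genes for USP28 virus against null virus, and 921 genes and 1 import gene, Timm22, for USP28 virus against control. No filter gave 10 genes for USP28 virus against null virus, and 908 genes and 2 partner genes for USP28 virus against control. Limma voom gave 189 genes for USP28 virus against null virus. Scaling by median of ratios, a minimum of 1 RPKM, pseudocounts of 1 and 0.01, and removal of the gene length trend kept every count within 1.5 times, the last with 3 import genes for null virus and 6 for USP28 virus against control. The causes were not tested.

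Same-numbered samples deviated with correlations of -0.029 to 0.060. With 3 samples per group, such correlations cannot decide whether a number marks a shared batch, and the labels do not state it. With the replicate number as a block, 2775 genes passed for null virus against control with 2 import genes, 0 for USP28 virus against null virus, and 1265 genes, 3 import genes and 2 partner genes for USP28 virus against control. Depth limits Tomm20l and Timm8a2, at 10 reads or fewer.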
